A study of Mus musculus with 24 samples.

Results

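The 10 genes described here encode enzymes that build triglyceride in the liver and the transfer protein that loads it onto VLDL. They are Gpam, Gpat3, Gpat4, Agpat2, Lpin1, Lpin2, Dgat1, Dgat2, Mogat1 and Mttp, and they were taken by gene symbol as 10 of the 54532 rows of a table of read counts per gene. RNA-seq was done on whole livers of 24 male C57BL/6J mice, 8 to 10 weeks old, after a 24 h fast, and each of the 6 genotypes had 4 livers.

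All mice were fasted, so the data hold no fed liver. The ff;ff mice carry floxed alleles of Rab30 and of Cpt2 without Cre and were littermates of the DKO mice. Rab30L-/-, Cpt2L-/- and DKO mice carry albumin-Cre, a transgene that acts in hepatocytes, with floxed Rab30, floxed Cpt2 or both. In Rab30KO mice exon 4 of Rab30 is deleted in every tissue, and Rab30 Ctrl mice are their wild-type littermates. Cpt2 carries out the last step by which long-chain fatty acids enter the mitochondrial matrix for oxidation, and Rab30 is a small GTPase of the Golgi. Bulk liver RNA also holds the cells in which albumin-Cre is not active. In such samples fewer cells of a type and less RNA per cell cannot be told apart.

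The whole-gene counts checked these labels only in part. Cpt2 was at 127 ± 30.2 CPM (TMM-scaled counts relative to library size; SD, n = 4) in Cpt2L-/- and at 132 ± 5.13 CPM in ff;ff, a log2 fold change of -0.07 with an adjusted p of 0.788 by edgeR. It was at 219 ± 40.3 CPM in Rab30L-/- and at 105 ± 10.9 CPM in DKO, where it fell by 1.07 on the log2 scale against Rab30L-/- (adjusted p = 0.000449, edgeR) but had a change of only -0.34 against ff;ff, which was not called (adjusted p = 0.0911). Rab30 was at 17.1 ± 7.35 CPM in Rab30L-/- and 36.5 ± 9.54 CPM in ff;ff (adjusted p = 0.174, edgeR). Both groups with floxed Cpt2 and Cre had more of it, 147 ± 29.96 CPM in Cpt2L-/- and 161 ± 57.8 CPM in DKO, and DKO was not lower than Cpt2L-/- (log2 fold change 0.15, adjusted p = 0.763, edgeR). In Rab30KO it was at 11.2 ± 5.04 CPM and in Rab30 Ctrl at 14.1 ± 10.8 CPM, with overlap (log2 fold change -0.34, unadjusted p = 0.513 by edgeR), so the Rab30 count did not tell these groups apart. A count over the whole gene also takes in the exons that remain, so the group names below are those of the labels. Hepatocyte markers were present in all 24 libraries. Their sum over 6 genes ranged from 92857 to 126021 CPM in ff;ff, from 44483 to 52867 CPM in Cpt2L-/-, from 74897 to 90887 CPM in Rab30L-/- and from 58454 to 70872 CPM in DKO, and so was lower in both groups with the Cpt2 deletion than in their comparison groups. Most of this sum was Alb. By gene, Alb, Tat and Ttr fell in Cpt2L-/- against ff;ff and Apoa1 and Ttr in DKO against Rab30L-/-, with list medians of -0.76 and -0.44. The part of this difference in the results below was not tested.

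In the glycerol 3-phosphate route, a first acyl chain is added to glycerol 3-phosphate by a glycerol-3-phosphate acyltransferase, a second is added by an AGPAT enzyme to give phosphatidic acid, a lipin removes the phosphate to leave diacylglycerol, and a DGAT enzyme adds the last chain. A second route reaches diacylglycerol from monoacylglycerol by a MOGAT enzyme. Mttp then transfers triglyceride onto apolipoprotein B in the endoplasmic reticulum, which starts the assembly of VLDL. During a fast the liver takes up fatty acids released by adipose tissue, and those that are not oxidized can be esterified by these routes.

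Upstream sequence is shown for the 4 members that differed past the thresholds in the same direction in both comparisons of Cpt2 deletion. RefSeq start sites of GRCm38.p6 were at hand for 7 of the 10 members, Mogat1, Agpat2, Mttp, Gpat3, Lpin1, Lpin2 and Gpam. The 200 bases before the start site are written 5′ to 3′ on the strand of the gene, with each CG dinucleotide in capitals.

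Mogat1, chr1:78510860-78511059, plus strand: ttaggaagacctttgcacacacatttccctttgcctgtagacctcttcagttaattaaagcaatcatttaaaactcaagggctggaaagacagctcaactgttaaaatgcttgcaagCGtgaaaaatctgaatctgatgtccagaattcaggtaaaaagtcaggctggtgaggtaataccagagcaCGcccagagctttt

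Gpat3, chr5:100846029-100846228, plus strand: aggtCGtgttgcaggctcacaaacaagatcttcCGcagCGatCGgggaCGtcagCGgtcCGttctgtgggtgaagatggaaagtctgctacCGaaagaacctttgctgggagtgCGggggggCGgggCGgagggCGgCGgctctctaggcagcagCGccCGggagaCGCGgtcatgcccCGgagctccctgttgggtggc

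Mttp, chr3:138143419-138143618, minus strand: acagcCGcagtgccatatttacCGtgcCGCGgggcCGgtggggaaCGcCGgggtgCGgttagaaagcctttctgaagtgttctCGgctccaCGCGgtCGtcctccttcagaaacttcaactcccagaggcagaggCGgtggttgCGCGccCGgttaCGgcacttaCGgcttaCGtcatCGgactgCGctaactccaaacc

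Agpat2, chr2:26604418-26604617, minus strand: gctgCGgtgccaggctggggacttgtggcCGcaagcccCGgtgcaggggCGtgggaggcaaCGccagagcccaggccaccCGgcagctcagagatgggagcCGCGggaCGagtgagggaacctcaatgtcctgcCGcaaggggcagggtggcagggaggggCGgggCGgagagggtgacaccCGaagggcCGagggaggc

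The Mogat1 window held 2 CG dinucleotides and was 41.5% G or C, whereas those of Agpat2, Gpat3 and Mttp held 14, 18 and 21. The median over 32851 such windows was 5. The Lpin1 window, from chr12:16610967-16611166 on the minus strand, held 0. The start site of Mttp used here lies 1550 bases inside the 5′ limit of the gene in the count table, and those of Gpat3, Mogat1 and Agpat2 lie 516, 69 and 0 bases inside it. The motifs searched on both strands were AGGTCA, the half-site of many nuclear receptors, CACGTG, an E-box, and TGTTTAC, a forkhead motif. None of the 4 windows held any of them. AGGTCA was found in the windows of Lpin1 and Gpam and in 11.4% of all windows, CACGTG in a window of Lpin2 and in 5.26% of all, and TGTTTAC in a window of Lpin2 and in 2.51% of all. A pair of AGGTCA sites 1 base apart was in no member's window and in 0.0335% of all. These are matches of letters and say nothing of binding.

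The level of each member was compared per gene length by deposited FPKM, which divide the count by gene length and a total per library. That total was 0.851 to 1.14 times the library's sum in the count table, higher in Cpt2L-/- than in ff;ff, so the order of levels was read within each group. In ff;ff livers, Dgat2 stood first at 169 ± 9.41 FPKM (SD, n = 4) and did not overlap with any other member but Lpin1, whose single highest library reached 175. Gpat4, Agpat2, Lpin1, Lpin2, Mttp and Gpam followed with means from 78.9 to 39.4 FPKM, and each neighbour in that order overlapped with the next. Dgat1 was at 13.8 ± 3.21 FPKM, Gpat3 at 4.15 ± 0.34 FPKM and Mogat1 at 0.30 ± 0.29 FPKM (SD, n = 4), with no overlap between these 3. In Cpt2L-/- livers Dgat2 (149 ± 9.67 FPKM), Lpin2 (110 ± 19.8 FPKM) and Mttp (109 ± 6.84 FPKM) led the order, and Lpin1 stood at 15.9 ± 4.05 FPKM. The plot of FPKM levels shows the whole order.

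**Figure D1:**
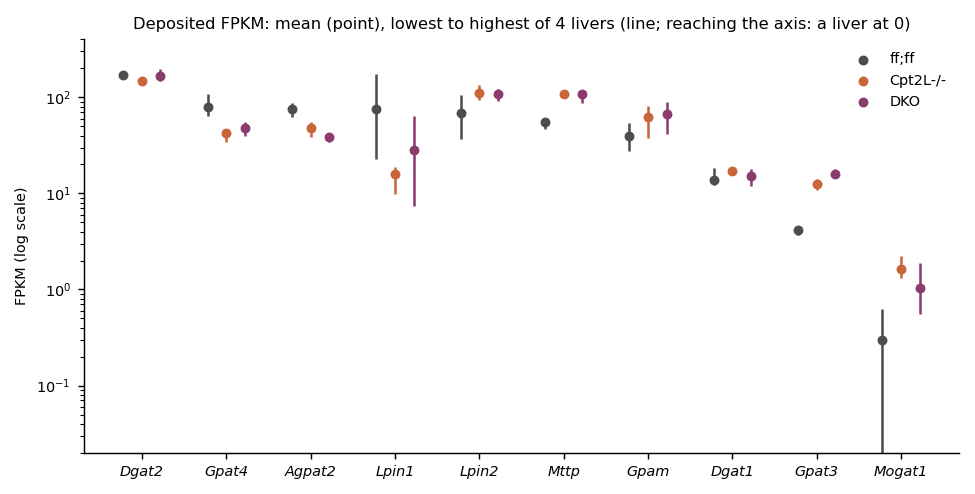
Deposited FPKM of the 10 genes on a log axis in ff;ff, Cpt2L-/- and DKO livers, with the mean as a point and the lowest to highest of 4 livers as a line. Dgat2 is near the top in each group, Mogat1 is at the bottom, and the line of Lpin1 in ff;ff runs from 22.8 to 175 FPKM.

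Deletion of Cpt2 was compared in 2 settings that share no liver, Cpt2L-/- against ff;ff and DKO against Rab30L-/-. Neither setting is labelled as a comparison of littermates, and in the first only the Cpt2L-/- mice carry Cre. Litter, and Cre in the first setting, cannot be told apart from the Cpt2 deletion. A gene was called where edgeR's quasi-likelihood test gave a Benjamini-Hochberg adjusted p under 0.05 over all genes and the change was at least 1.2-fold. In Cpt2L-/- against ff;ff, 3 of the 10 members rose (Gpat3, Mogat1 and Mttp) and 3 fell (Gpat4, Agpat2 and Lpin1). Of all 13270 genes tested, 11.9% rose and 11.9% fell. By limma-voom, whose share over all genes is not given here, 6 members rose and 3 fell, with Gpam, Lpin2 and Dgat1 added to the rises. In DKO against Rab30L-/-, 5 members rose (Gpam, Gpat3, Lpin2, Mogat1 and Mttp) and 1 fell (Agpat2), where 14.9% of 13292 genes rose and 15.8% fell. Gpat3, Mogat1, Mttp and Agpat2 were called the same way in both by edgeR, 4 of 10 members, beside 13.0% of the 12970 genes tested in both. By limma-voom Gpam, Lpin2 and Dgat1 also rose in both. Mogat1 passed the filter on low counts only through its higher group, so it had to differ to be counted. Without it the edgeR counts were 2 and 4 rises of 9 members, and 3 of 9 were called the same way in both. The log2 fold changes of these 9 had a median size of 0.70 and 0.64, beside 0.34 and 0.37 over all genes tested.

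**Figure D2:**
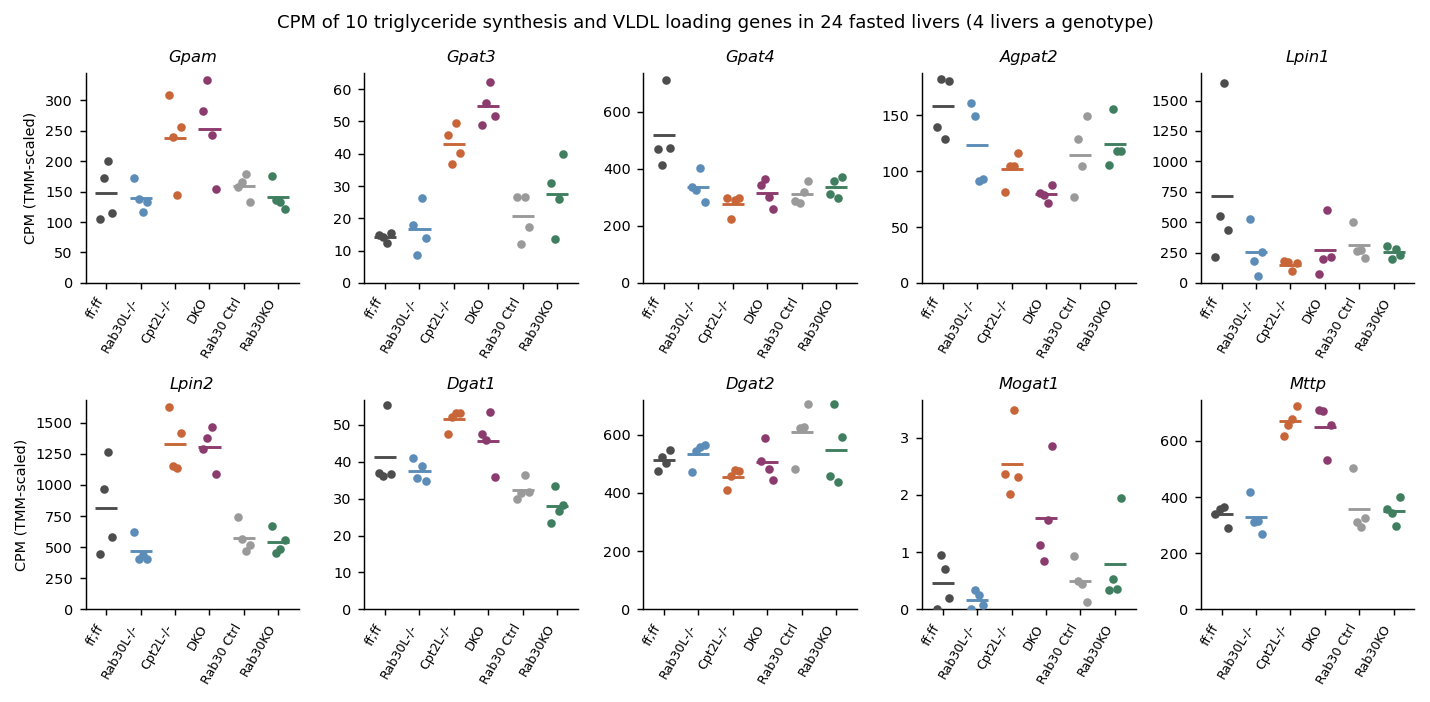
CPM of each of the 10 genes in each of 24 livers by genotype, with a line at the mean of 4 livers and every axis from 0. Gpat3 and Mttp lie higher in all 8 livers of Cpt2L-/- and DKO than in all 8 of ff;ff and Rab30L-/-, Dgat2 shows little difference, and Lpin1 has single livers far above the rest.

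Among the enzymes of the first step, Gpat3 rose and Gpat4 did not. Gpat3 (chr5:100845713-100899102, plus strand of GRCm38) encodes an acyltransferase of the endoplasmic reticulum best known from adipocytes. It was at 14.9, 14.3, 12.5 and 15.3 CPM in ff;ff and at 45.8, 36.9, 49.5 and 40.4 CPM in Cpt2L-/-. In Rab30L-/- it was at 18.1, 8.65, 26.3 and 13.9 CPM, and in DKO at 49.0, 55.7, 62.2 and 51.6 CPM. Every liver with the Cpt2 deletion was above every liver of its comparison group. The log2 fold change was 1.58 (SE 0.14, adjusted p = 1.1e-05, edgeR) and 1.70 (SE 0.27, adjusted p = 0.0016). An antisense gene, 4930458D05Rik, overlaps Gpat3 and had 0 to 61 counts in a library.

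Gpat4 (chr8:23171265-23208346, minus strand), the acyltransferase of the endoplasmic reticulum with the higher level in these livers, was at 468, 414, 711 and 475 CPM in ff;ff and at 296, 226, 291 and 299 CPM in Cpt2L-/-. The groups did not overlap, and Gpat4 fell by 0.91 on the log2 scale (SE 0.19, adjusted p = 0.0033, edgeR). In Rab30L-/- it was at 336, 325, 402 and 283 CPM and in DKO at 343, 364, 301 and 258 CPM, with a log2 fold change of -0.08 (SE 0.15, adjusted p = 0.723) and groups that overlapped. The difference between these changes was tested as an interaction over 16 livers and was 0.83 on the log2 scale (SE 0.24, adjusted p = 0.06, edgeR), short of the threshold. DESeq2's Wald test (adjusted p = 0.017) and limma-voom (adjusted p = 0.014) called it, and edgeR did without DKO replicate 4 (adjusted p = 0.049). Without ff;ff replicate 3, the highest liver, the interaction was 0.64 (adjusted p = 0.081, edgeR), and over the livers left out the adjusted p reached 0.118. Rab30 Ctrl livers were at 280 to 356 CPM of Gpat4 and Rab30KO livers at 298 to 373 CPM. Every liver of the other groups lay below the lowest ff;ff liver.

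Gpam (chr19:55069734-55099451, minus strand) encodes the acyltransferase of the mitochondrial outer membrane. It was at 104, 172, 201 and 114 CPM in ff;ff and at 309, 240, 144 and 256 CPM in Cpt2L-/-, where the groups overlapped through Cpt2L-/- replicate 3 (log2 fold change 0.67, SE 0.26, adjusted p = 0.083, edgeR). In Rab30L-/- it was at 172, 138, 117 and 133 CPM and in DKO at 283, 333, 243 and 155 CPM. Here it rose by 0.86 on the log2 scale (SE 0.22, adjusted p = 0.014), although DKO replicate 4 lay below Rab30L-/- replicate 1. Leaving out ff;ff replicate 3 brought the change in Cpt2L-/- against ff;ff to 0.85 (adjusted p = 0.031), and leaving out Cpt2L-/- replicate 3 brought it to 0.84 (adjusted p = 0.023). Other livers left out brought it down to as low as 0.51, and the adjusted p up to 0.214.

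Agpat2 (chr2:26593057-26604417, minus strand) makes phosphatidic acid and was the only member to fall in both settings. It was at 140, 182, 129 and 181 CPM in ff;ff and at 81.7, 105, 105 and 117 CPM in Cpt2L-/-, and at 161, 149, 91.4 and 92.6 CPM in Rab30L-/- and 80.6, 78.8, 71.4 and 88.0 CPM in DKO. Neither pair of groups overlapped, though Rab30L-/- replicates 3 and 4 lay just above the highest DKO liver. Rab30 Ctrl livers, at 76.5 to 149 CPM, overlapped with those of Cpt2L-/- and of DKO. Agpat2 fell by 0.64 on the log2 scale in each setting (SE 0.16 and 0.20, adjusted p = 0.011 and 0.029, edgeR). The call in DKO against Rab30L-/- was lost when any 1 of 5 livers was left out, Rab30L-/- replicates 1 and 2 or DKO replicates 1, 2 and 3, with adjusted p of 0.063 to 0.084. Egfl7, a gene on the opposite strand that overlaps Agpat2, had 133 to 585 counts in a library.

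The lipins, which turn phosphatidic acid into diacylglycerol, differed from each other. Lpin1 (chr12:16535669-16610966, minus strand), which is also known as a coactivator of fatty acid oxidation genes, varied widely between livers of a group. It was at 217, 552, 1645 and 439 CPM in ff;ff and at 178, 172, 96.3 and 162 CPM in Cpt2L-/-. These groups did not overlap, and Lpin1 fell by 2.24 on the log2 scale (SE 0.61, adjusted p = 0.031, edgeR). Without ff;ff replicate 3, its highest liver, the change was -1.41 (adjusted p = 0.0083), and the call was lost without ff;ff replicate 2 or without any 1 of the 4 Cpt2L-/- livers (adjusted p of 0.052 to 0.086). In Rab30L-/- Lpin1 was at 523, 177, 57.5 and 251 CPM and in DKO at 70.03, 201, 604 and 211 CPM, with no call (log2 fold change 0.09, SE 0.83, adjusted p = 0.948).

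Lpin2 (chr17:71182560-71249817, plus strand), a lipin abundant in liver, was at 443, 968, 1262 and 582 CPM in ff;ff and at 1626, 1154, 1133 and 1417 CPM in Cpt2L-/-. The 2 highest ff;ff livers stood apart from the 2 lowest, the groups overlapped through ff;ff replicate 3, and the change of 0.70 was not called (SE 0.29, adjusted p = 0.104, edgeR). Without ff;ff replicate 3 it was 0.99 and was called (adjusted p = 0.012). Other livers left out brought it down to as low as 0.49, and the adjusted p up to 0.23. In Rab30L-/- Lpin2 was at 618, 406, 440 and 403 CPM and in DKO at 1287, 1377, 1463 and 1091 CPM, without overlap, and it rose by 1.48 on the log2 scale (SE 0.18, adjusted p = 2.0e-04).

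Neither of the genes of the last acylation was called by edgeR with all livers in. Dgat2 (chr7:99153658-99182719, minus strand), the enzyme mainly linked to newly made fatty acids and to the bulk of hepatic triglyceride, was at 476, 524, 503 and 547 CPM in ff;ff and at 409, 456, 477 and 476 CPM in Cpt2L-/- (log2 fold change -0.18, SE 0.13, adjusted p = 0.355, edgeR). In Rab30L-/- it was at 470, 543, 559 and 563 CPM and in DKO at 510, 588, 481 and 442 CPM (log2 fold change -0.08, SE 0.14, adjusted p = 0.715). Over all 24 livers Dgat2 had the smallest range of group means among the members, 0.41 by log2 of CPM plus 0.5.

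Dgat1 (chr15:76502015-76511953, minus strand), the other DGAT, also able to re-esterify fatty acids taken up by the cell, was at 36.8, 36.1, 55.3 and 36.7 CPM in ff;ff and at 47.6, 52.2, 53.3 and 53.3 CPM in Cpt2L-/-. ff;ff replicate 3 was above every Cpt2L-/- liver, and the other ff;ff livers were below all of them. The change of 0.31 was not called (SE 0.16, adjusted p = 0.188, edgeR), and it was 0.49 without ff;ff replicate 3 (adjusted p = 0.014). Other livers left out brought it down to as low as 0.25, and the adjusted p up to 0.378. In Rab30L-/- Dgat1 was at 41.1, 35.6, 38.9 and 34.7 CPM and in DKO at 47.5, 45.8, 53.6 and 35.9 CPM (log2 fold change 0.28, SE 0.14, adjusted p = 0.14). Without DKO replicate 4 the change was 0.39 and was called (adjusted p = 0.033). Over the livers left out it was as low as 0.21, with an adjusted p up to 0.287. With all livers in, limma-voom called Dgat1 in both settings, at 0.44 and 0.35 (adjusted p = 0.0154 and 0.0291).

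Mogat1 (chr1:78510991-78538173, plus strand), the monoacylglycerol acyltransferase of the second route to diacylglycerol, had the largest fitted rises of the 10 members in both settings and the lowest level. Since it passed the filter on low counts only through its higher group, it could enter these tests only by differing. It had 0, 16, 10 and 3 counts in ff;ff and 37, 32, 54 and 37 in Cpt2L-/-, and 0, 4, 6 and 1 counts in Rab30L-/- and 16, 13, 24 and 61 in DKO. Neither pair of groups overlapped in CPM. It rose by 2.37 on the log2 scale (SE 0.56, adjusted p = 0.0083, edgeR) and by 3.18 (SE 0.65, adjusted p = 0.0038). Against so few counts, 0 to 6 in a Rab30L-/- library, the sizes of these fitted changes are imprecise and depend on the prior count. The mean stayed at 2.55 ± 0.65 CPM in Cpt2L-/- and 1.59 ± 0.89 CPM in DKO (SD, n = 4). The 6 adipocyte markers had no common direction beside it. Lep and Retn had 0 counts in every Cpt2L-/- and DKO liver, and Adipoq had 0 in Cpt2L-/- and 0 to 1 in DKO. Plin1 had 2, 2, 7 and 3 counts in Cpt2L-/- and 2, 6, 1 and 2 in DKO, against 0, 5, 0 and 0 in ff;ff and 0 in all Rab30L-/- livers. Cfd had 1, 3, 7 and 1 counts in Cpt2L-/- and 3, 0, 0 and 0 in DKO, and Fabp4 rose 2.35-fold and 4.45-fold (adjusted p = 0.0029 and 0.0068, edgeR). ff;ff replicate 2, the highest liver of that group for Mogat1, had 14 counts of Adipoq and 39 of Cfd. The part of these markers in the change of Mogat1 was not tested. BC035947, a gene on the opposite strand, overlaps Mogat1 and had 0 to 16 counts in a library.

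Mttp (chr3:138089854-138144968, minus strand), the triglyceride transfer protein of VLDL assembly, was at 340, 359, 364 and 291 CPM in ff;ff and at 618, 658, 678 and 725 CPM in Cpt2L-/-. In Rab30L-/- it was at 419, 313, 314 and 269 CPM, and in DKO at 711, 706, 533 and 656 CPM. The lowest liver with the Cpt2 deletion was above the highest liver without it in both settings. Mttp rose by 0.97 on the log2 scale (SE 0.14, adjusted p = 0.00034, edgeR) and by 0.99 (SE 0.17, adjusted p = 0.0015). Trmt10a, which overlaps Mttp on the opposite strand, had 54 to 178 counts in a library.

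**Figure D3:**
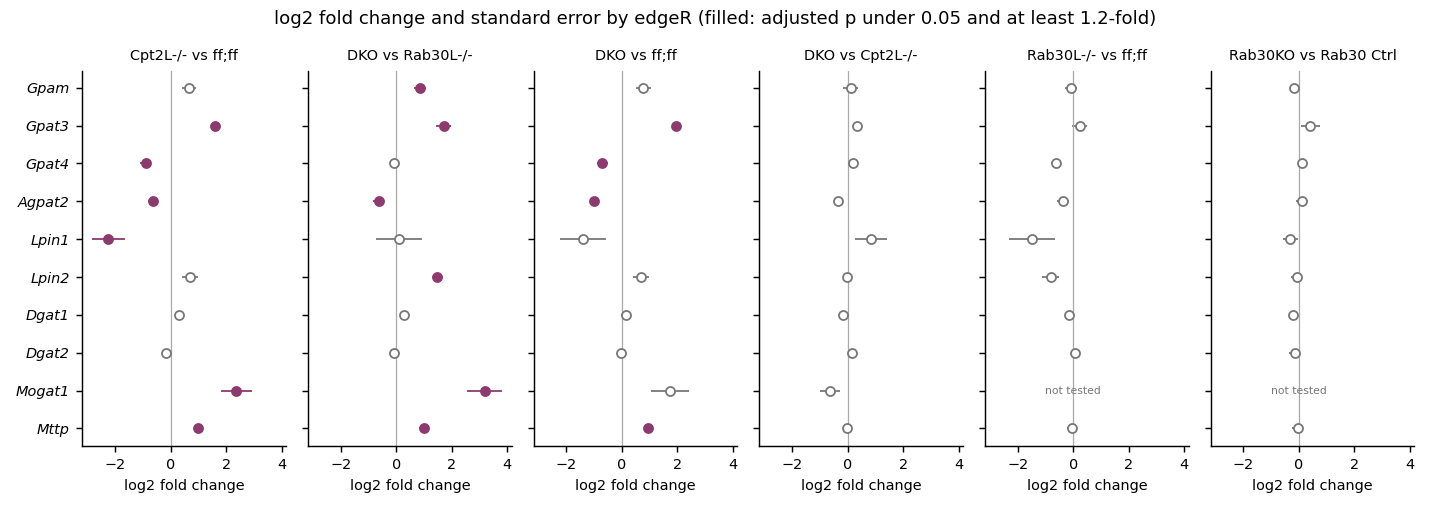
log2 fold change of each of the 10 genes (points) with its standard error (lines) in 6 comparisons, filled where the adjusted p was under 0.05 and the change at least 1.2-fold. Filled points occur only in the 3 panels that compare livers with and without the Cpt2 deletion. In these, Gpat3 and Mttp are filled on the right and Agpat2 on the left.

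DKO against ff;ff compares both deletions with none, and shares its livers with the comparisons above. Gpat3 and Mttp rose by 1.93 and 0.94 on the log2 scale (adjusted p = 2.5e-05 and 0.0019, edgeR), and Agpat2 and Gpat4 fell by 0.99 and 0.72 (adjusted p = 0.0011 and 0.026). These were 2 rises and 2 falls among 10 members, where 7.87% of 13389 genes rose and 8.24% fell. The call of Gpat4 was lost without DKO replicate 1, 3 or 4 or without ff;ff replicate 3 (adjusted p of 0.051 to 0.075). The values of Mogat1 (1.73, adjusted p = 0.108), Gpam (0.77, adjusted p = 0.072), Lpin2 (0.67, adjusted p = 0.144) and Lpin1 (-1.41, adjusted p = 0.315) did not pass. Without ff;ff replicate 3 Gpam and Lpin2 passed, at 0.95 and 0.96 (adjusted p = 0.038 and 0.025), and Gpam also passed without DKO replicate 4, at 0.94 (adjusted p = 0.026). Over the livers left out, the changes ran from 0.61 to 0.95 for Gpam and from 0.47 to 0.96 for Lpin2. They ran from -2.16 to -0.58 for Lpin1 and from 1.27 to 2.36 for Mogat1.

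Loss of Rab30 was compared in 3 settings, and edgeR called 0 members in each. In DKO against Cpt2L-/- the log2 fold changes ran from -0.64 (Mogat1) to 0.84 (Lpin1, which was -0.14 by limma-voom), where 2.71% of 13306 genes were called. An unadjusted p was under 0.05 for 2 members and for 21.7% of all genes. These members were Gpat3 at 0.35 (SE 0.12) and Agpat2 at -0.35 (SE 0.13), whose adjusted p were 0.138 and 0.144. In Rab30L-/- against ff;ff 0.479% of 13367 genes were called, and an unadjusted p was under 0.05 for 2 of 9 members tested, Gpat4 and Lpin2, and for 11.2% of all genes. Gpat4 was lower in all 4 Rab30L-/- livers than in all 4 ff;ff livers, at 336 ± 49.2 against 517 ± 132 CPM (SD, n = 4 each). Its log2 fold change was -0.63 and the adjusted p was 0.229. Lpin2 was at 467 ± 102 against 814 ± 372 CPM (log2 fold change -0.81, adjusted p = 0.343). Without ff;ff replicate 3 the change was -0.44 for Gpat4 and -0.52 for Lpin2 (adjusted p = 0.313 and 0.469, edgeR).

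In Rab30KO against Rab30 Ctrl the members' changes ran from -0.31 (Lpin1) to 0.41 (Gpat3), with 0 of 9 members and 2.21% of all genes at an unadjusted p under 0.05, and 0.0220% of 13656 genes were called. DESeq2's Wald test and limma-voom also called 0 members in each of these 3 settings. Mogat1 was not tested in Rab30L-/- against ff;ff or in Rab30KO against Rab30 Ctrl, since it did not pass the filter on low counts there. In the interaction over 16 livers, which asks whether loss of Rab30 acts differently when Cpt2 is also lost, edgeR called 0 members and 4.06% of 14063 genes. Unadjusted p were under 0.05 for 21.7% of all genes and for 3 members, Gpat4, Lpin2 (0.79 on the log2 scale, SE 0.36, adjusted p = 0.216) and Lpin1 (2.34, SE 1.08, adjusted p = 0.23). Without ff;ff replicate 3 the interaction was 0.50 for Lpin2 and 1.52 for Lpin1 (adjusted p = 0.361 and 0.39, edgeR).

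Pairs of members that act at the same step were compared within each library by the log2 ratio of their counts, which does not depend on library scaling. Each ratio was tested in 6 comparisons by an exact two-sided permutation test of 4 against 4 livers, whose smallest possible p is 0.0286, and the 18 p-values were adjusted together. No adjusted p was under 0.05. The Gpam to Gpat4 ratio was -2.16, -1.27, -1.82 and -2.05 in ff;ff and 0.06, 0.09, -1.02 and -0.23 in Cpt2L-/-, higher in 4 of 4 livers by 1.55 (exact permutation p = 0.0286, adjusted p = 0.0735). In DKO it was 0.90 higher than in Rab30L-/- and 1.46 higher than in ff;ff, also without overlap (exact permutation p = 0.0286, adjusted p = 0.0735 for both).

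The Lpin1 to Lpin2 ratio was -1.03, -0.81, 0.38 and -0.41 in ff;ff and -3.19, -2.75, -3.56 and -3.13 in Cpt2L-/-. The 4 Cpt2L-/- livers were all below the 4 ff;ff livers, with a difference of -2.69 on the log2 scale (exact permutation p = 0.0286, adjusted p = 0.0735). DKO livers ranged from -4.20 to -1.28, overlapping with Rab30L-/- livers at -2.94 to -0.24 (exact permutation p = 0.171, adjusted p = 0.309). All DKO livers were below the ff;ff livers, by 2.19 on average (exact permutation p = 0.0286, adjusted p = 0.0735). Per length, Lpin1 was at 0.62 to 1.65 of the FPKM of Lpin2 in ff;ff and at 0.11 to 0.19 of it in Cpt2L-/-. The Dgat2 to Dgat1 ratio was 3.14 ± 0.03 in Cpt2L-/- and 3.66 ± 0.33 in ff;ff (log2 scale; SD, n = 4 each), a difference of -0.52 without overlap (exact permutation p = 0.0286, adjusted p = 0.0735). In DKO it was 3.47 ± 0.23, which was 0.34 higher than in Cpt2L-/- (exact permutation p = 0.0286, adjusted p = 0.0735). This was the only ratio at that smallest p in a comparison of Rab30 loss. The groups barely separated, as the lowest DKO liver and the highest Cpt2L-/- liver were both at 3.16.

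**Figure D4:**
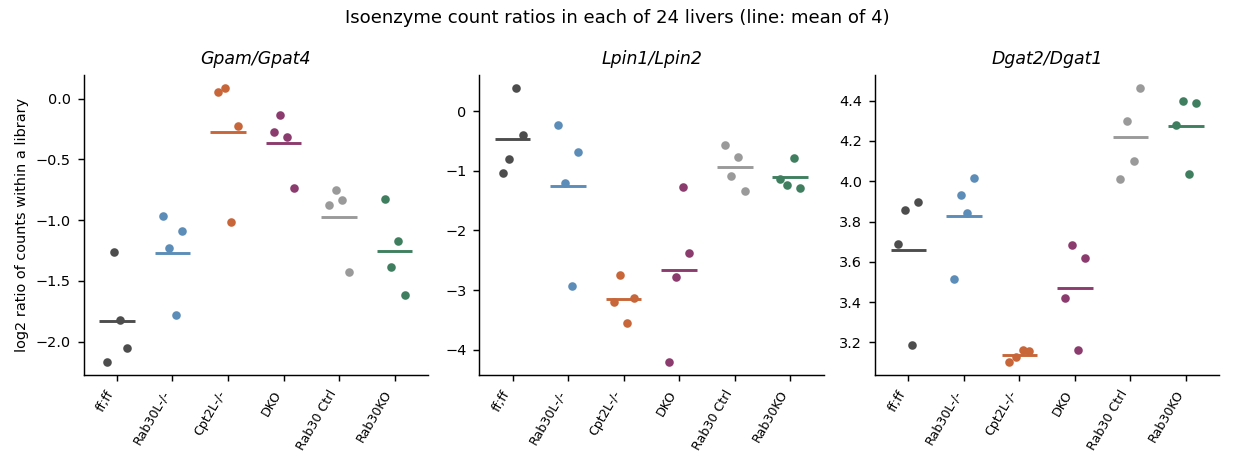
log2 ratio of counts of Gpam to Gpat4, Lpin1 to Lpin2 and Dgat2 to Dgat1 in each of 24 livers by genotype, with a line at the mean of 4. The Gpam to Gpat4 points of Cpt2L-/- and DKO lie above those of ff;ff, and the Lpin1 to Lpin2 points of Cpt2L-/- lie below.

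Genes that feed, branch from or regulate these routes were described from lists set beside the members. Their counts stand beside the shares over all genes, 11.9% called in each direction in Cpt2L-/- against ff;ff, 14.9% higher and 15.8% lower in DKO against Rab30L-/-, and 13.0% the same way in both. One list held 5 genes, Gk, Gpd1, Gpd1l and Gpd2 of glycerol 3-phosphate metabolism and the glycerol channel Aqp9. Of these 2 rose in both settings. They were Gk, the glycerol kinase that makes glycerol 3-phosphate, and Gpd2, the mitochondrial dehydrogenase that oxidizes it to dihydroxyacetone phosphate. Gk was at 172 ± 52.0 CPM in ff;ff and 397 ± 36.9 CPM in Cpt2L-/- (SD, n = 4). It was 2.29-fold and 2.31-fold higher in the 2 settings (adjusted p = 0.0011 and 0.00081, edgeR). Gpd2 rose by 1.01 and 1.77 (adjusted p = 0.0046 and 7.1e-05). Gpd1l fell in Cpt2L-/- against ff;ff. The list medians were 0.43 and 0.20, beside -0.0035 and -0.012 over all genes. Of 4 long-chain acyl-CoA synthetases tested, Acsl5 rose in both (0.58 and 0.64, adjusted p = 0.0063 and 0.017), and Acsl1 and Acsl3 rose in DKO against Rab30L-/-. The medians of these 4 were 0.05 and 0.68.

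Among 8 other triglyceride pathway enzymes, Mogat2, the second monoacylglycerol acyltransferase, rose in both settings from very few counts. It had 3, 0, 0 and 0 counts in ff;ff and 18, 45, 33 and 36 in Cpt2L-/-, at least 9.98-fold higher against a floor of 3 counts per library. It had 1, 6, 12 and 4 counts in Rab30L-/- and 25, 39, 40 and 43 in DKO (log2 fold change 2.62, adjusted p = 0.0012, edgeR). Like Mogat1 it passed the filter on low counts through its higher group. Lpin3 also rose in Cpt2L-/- against ff;ff, and Agpat5 and Tmem68 rose and Gpat2 fell in DKO against Rab30L-/-. The list medians were 0.27, also with Mogat2 at its bound, and 0.32.

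Of 14 other genes of VLDL assembly and export, 2 rose and 2 fell in Cpt2L-/- against ff;ff (Fitm2 and Sort1, Tm6sf2 and Aadac), and 3 rose and 3 fell in DKO against Rab30L-/- (Fitm2, Ces1d and Sar1b, Tm6sf2, P4hb and Cideb). The shares over all genes were 11.9% each way in the first setting and 14.9% and 15.8% in the second. Fitm2, which acts in lipid droplet formation, rose by 0.52 and 1.34 (adjusted p = 0.029 and 9.8e-05, edgeR). Tm6sf2, needed to load VLDL with lipid, fell by 1.01 and 0.76 (adjusted p = 0.0037 and 0.0023). Mttp rose and Tm6sf2 fell in the same livers. The list medians were -0.23 and -0.07. In DKO against Cpt2L-/-, where no member was called, 4 of these 14 genes were, beside 2.71% of all genes. Ces1d and Sar1b rose 2.01-fold and 1.46-fold (adjusted p = 0.019 and 0.033, edgeR), and Sort1 and Cideb fell by 0.72 and 0.48 on the log2 scale (adjusted p = 0.015 and 0.044). The interaction was called for 4 of the 14, beside 4.06% of all genes, and on the log2 scale was 1.44 for Ces1d, 0.89 for Sar1b, 0.82 for Fitm2 and -0.64 for Cideb (adjusted p of 0.024 to 0.046). Ces1d belongs to a family of similar genes, among which reads may be split.

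Of 5 enzymes of the phospholipid branch from diacylglycerol, Pemt, which makes phosphatidylcholine by methylation, fell in both settings by 0.90 and 0.78 (adjusted p = 0.00087 and 5.0e-04, edgeR), and Chpt1 and Cept1 rose in DKO against Rab30L-/-. The list medians were 0.04 and 0.15. Of 6 transcriptional regulators of lipid genes, 3 were called the same way in both, beside 13.0% of all genes. Pparg, a nuclear receptor that drives fat storage, was at 7.73 ± 1.99 CPM in ff;ff and 20.5 ± 4.20 CPM in Cpt2L-/-, and at 5.36 ± 0.65 CPM in Rab30L-/- and 23.3 ± 3.45 CPM in DKO (SD, n = 4 each), a rise of 1.39 and 2.12 on the log2 scale (adjusted p = 0.00053 and 1.6e-05). Srebf1, a regulator of fatty acid synthesis, fell by 1.02 and 0.75 (adjusted p = 0.0014 and 0.0053), and Mlxipl, a carbohydrate-responsive regulator, fell by 0.67 and 0.97 (adjusted p = 0.019 and 0.0029). Foxo1 fell in Cpt2L-/- against ff;ff. The list medians were -0.68 and -0.00042. In these lists, genes called in 1 Cpt2 setting or in the comparisons of Rab30 loss were named after their values were seen.

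**Figure D5:**
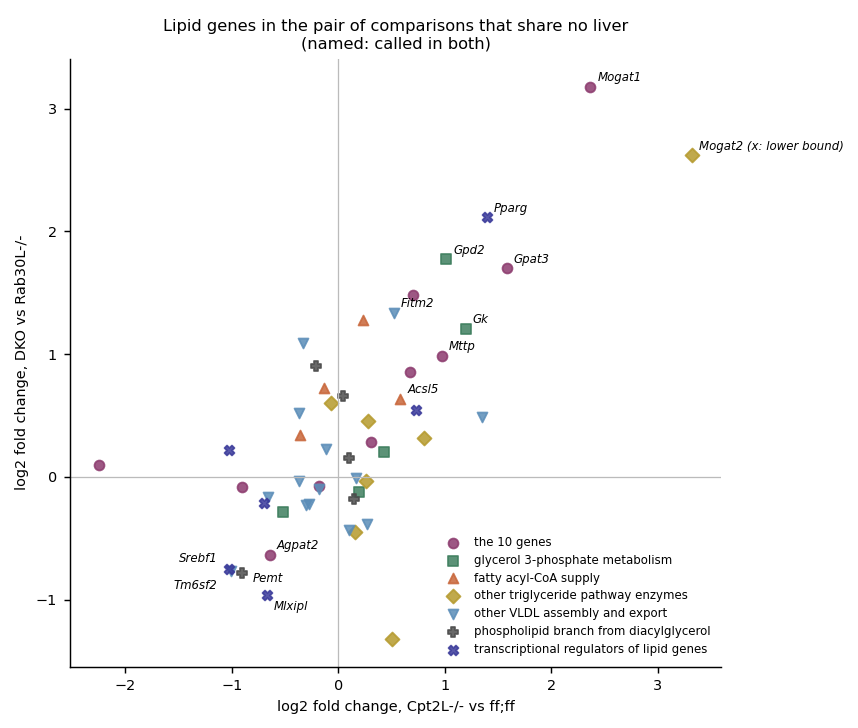
log2 fold change in Cpt2L-/- against ff;ff (horizontal) and DKO against Rab30L-/- (vertical) for the 10 genes and 6 lists of related lipid genes, with the genes called in both named. Mogat1, Mogat2, Pparg, Gpd2, Gpat3, Gk, Mttp, Fitm2 and Acsl5 are named at the upper right and Agpat2, Srebf1, Tm6sf2, Pemt and Mlxipl at the lower left; Mogat2 is drawn at its lower bound on the horizontal axis.

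Markers of other cell types also moved. Summed over 6 Kupffer and macrophage markers, Cpt2L-/- livers ranged from 134 to 186 CPM and ff;ff livers from 160 to 289 CPM, and DKO livers from 129 to 153 CPM against 207 to 611 CPM in Rab30L-/-. Of this list Clec4f and Vsig4 fell in Cpt2L-/- against ff;ff, where 11.9% of all genes fell. In DKO against Rab30L-/- 5 of 6 fell (Clec4f, Cd5l, Csf1r, Adgre1 and Marco), where 15.8% of all genes fell. The list medians were -0.49 and -1.24. Summed over 5 bile duct markers the ranges were 9.56 to 24.0 CPM in Cpt2L-/- and 15.3 to 31.9 CPM in ff;ff, and Sox9 fell in both. The stellate and endothelial lists had no gene called in both. Clec4g fell in Cpt2L-/- against ff;ff, and Colec11 fell and Ptprb rose in DKO against Rab30L-/-. Of the adipocyte list only Fabp4, which macrophages and endothelium also express, passed the filter on low counts, with the rises given above. Of the hepatocyte list, Ttr fell in both settings, by 0.86 and 0.60 (adjusted p = 0.0082 and 0.019). The part of these markers in the members' changes was not tested.

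By group means of log2 of CPM plus 0.5, a scale that shrinks the differences of low genes, the range over the 6 groups was 2.20 for Mogat1, 1.90 for Gpat3 and 1.87 for Lpin1. The profiles of the first pair were followed, although by mean CPM, with nothing added, Lpin1 had a wider range than Gpat3. Over the 24 libraries, among 12758 genes with a mean of at least 1 CPM, the 3 whose centred log2 CPM profile lay nearest to that of Gpat3 were Lipa, 1300002E11Rik and Gm13910, with root-mean-square differences of 0.37, 0.40 and 0.41, beside a spread of Gpat3 about its own mean of 0.81. Lipa, the lysosomal acid lipase, was at 143 ± 33.8 CPM in ff;ff and 456 ± 36.2 CPM in Cpt2L-/- (SD, n = 4 each). Gm13910 is a processed pseudogene, whose counts may include reads of its parent gene. The 3 nearest to Mogat1 were Slc3a2, Tpm4 and Zdhhc2, at 0.48 each beside a spread of 0.88 for Mogat1, whose count in a library was 61 at most.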

How the data were processed

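Total RNA from 24 fasted livers was sequenced by a company for the authors. Per the labels, HISAT2, DESeq2 and the builds GRCm38 and mm10 were used by the submitters; the counter, annotation and use of strand are not given in the sources used here. All tests used the whole-number read counts per gene that the authors deposited, and levels of different genes were compared by their deposited FPKM values. Genes listed as overlapping were counted without knowledge of strand. Tables of the authors' own comparisons (fold changes and p-values) and of normalized counts were not used. Coordinates of 9 of the 10 members were the same in GENCODE M21.

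Library totals ranged from 11801027 to 24497738 counts (median 14358966). Libraries of a genotype differed from each other by more than counting noise. Per the authors, the 4 livers of a genotype are biological replicates, and mice came from different litters and parents, with littermates where possible. Which single livers share a litter is not given. For each comparison a model of its 8 libraries was fitted in edgeR 4.0.16 under R 4.3.3 (filterByExpr, TMM, robust quasi-likelihood test), the interaction on 16, with Benjamini-Hochberg adjustment over all genes tested. A call needed an adjusted p under 0.05 and a change of at least 1.2-fold. CPM were TMM-scaled over 24 libraries. Ratios used counts plus 0.5, and profiles log2 of CPM plus 0.5. Permutation tests used scipy 1.17.1. Fits were tested on simulated counts with 200 genes changed 2-fold. Alternatives were DESeq2 1.42.0 size factors and Wald test, limma 3.58.1 voom with quality weights, all 24 libraries in one fit, no filter on low counts, a minimum of 10 counts per library, calls without the fold threshold, FPKM for the ratios, and each library left out. Named were the members, Rab30, Cpt2, up to 4 genes of each list called the same way in both Cpt2 comparisons, and the 3 nearest profiles of the 2 members with the widest range of group means of log2 of CPM plus 0.5. Members and lists were chosen with earlier results of these data known. Replicate numbers are in accession order and pair no livers. The libraries carry no molecular identifiers that the sources name, so reads may repeat a molecule and floors cover counting error only.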

Additional observations from a re-analysis of the deposited data

Results flagged for a closer look

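In 78 groups of 4 livers (10 genes and 3 ratios in 6 genotypes), 4 had 1 liver far from the other 3; chance alone gives this in about 1 of 20 groups. Gpat4 was at 226 CPM in Cpt2L-/- replicate 2 and at 291 to 299 CPM in the other 3. Dgat1 was at 55.3 CPM in ff;ff replicate 3 and at 36.1 to 36.8 CPM in the other 3. Mogat1 was at 1.94 CPM in Rab30KO replicate 4 and at 0.33 to 0.53 CPM in the other 3. Mttp was at 502 CPM in Rab30 Ctrl replicate 1 and at 293 to 324 CPM in the other 3. No member had an interaction past the threshold by edgeR.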

How the results depend on the processing

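Replicate numbers follow accession order, so no paired analysis was possible because the labels give no shared replicate numbers. With 4 livers a genotype, the precision of members such as Lpin1 is limited by the spread between livers, and that of Mogat1 and Mogat2 also by their counts. With rises and falls counted together, the members called in a comparison stayed within 1.5 times the edgeR count in every alternative but 3. These were all for the interaction, where 0 members became 1 (Gpat4) under DESeq2's Wald test, under limma-voom and without DKO replicate 4 (0 to 1 over the livers left out). The rises alone moved further. Limma-voom called 6 where edgeR called 3 in Cpt2L-/- against ff;ff, and 4 where edgeR called 2 in DKO against ff;ff. Leaving out ff;ff replicate 3 added the same members to the rises. The cause was not tested. Of single calls, Lpin1 in Cpt2L-/- against ff;ff was lost with no filter on low counts (adjusted p = 0.0913, edgeR), Mogat1 was not tested where every library had to have 10 counts, which left 5 members called in each Cpt2 setting, and calls lost without a liver are given beside their genes. Limma-voom and the fit over all 24 libraries added Gpam and Lpin2 in Cpt2L-/- against ff;ff, limma-voom added Dgat1 in both Cpt2 settings and Lpin2 in DKO against ff;ff, and DESeq2, limma-voom and the 24-library fit added Gpam in DKO against ff;ff. The alternatives could not bear on the ratio tests. FPKM shifts a ratio by a fixed length factor, and with a liver left out the smallest p is 0.0571. With a liver left out, 2 of the 18 ratio differences took the other sign, Dgat2 to Dgat1 in Rab30KO against Rab30 Ctrl (0.057, lowest -0.012) and Gpam to Gpat4 in DKO against Cpt2L-/- (-0.090, highest 0.035).

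Some changes of members took the other sign, none of them called. The largest of these changes with all livers in were those of Lpin1 in DKO against Cpt2L-/- (0.84) and in Rab30KO against Rab30 Ctrl (-0.31) and of Gpat3 in Rab30L-/- against ff;ff (0.23). Under limma-voom the log2 fold change was 0.091 for Gpat4 and -0.66 for Lpin1 in DKO against Rab30L-/-, -0.14 for Lpin1 and 0.027 for Mttp in DKO against Cpt2L-/-, -0.049 for Gpat3 in Rab30L-/- against ff;ff and 0.049 for Mttp in Rab30KO against Rab30 Ctrl. In the 24-library fit Agpat2 had an interaction of -0.0022. With single livers left out, the ranges were -0.15 to 0.013 for Gpat4 and -0.65 to 0.75 for Lpin1 in DKO against Rab30L-/-, and -0.11 to 0.034 for Dgat2 in DKO against ff;ff. In DKO against Cpt2L-/- they were -0.077 to 0.29 for Gpam, -0.097 to 0.088 for Lpin2 and -0.077 to 0.051 for Mttp. In Rab30L-/- against ff;ff they were -0.23 to 0.089 for Gpam, -0.067 to 0.44 for Gpat3, -0.20 to 0.030 for Dgat1 and -0.19 to 0.032 for Mttp. In Rab30KO against Rab30 Ctrl they were -0.028 to 0.27 for Agpat2, -0.47 to 0.028 for Lpin1, -0.19 to 0.074 for Lpin2 and -0.12 to 0.18 for Mttp. For the interaction they were -0.084 to 0.42 for Gpat3, -0.11 to 0.18 for Agpat2, -0.19 to 0.085 for Dgat1 and -0.063 to 0.17 for Mttp.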

Other observations

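The livers that set the spread of the members were not spread evenly. Replicate 3 of ff;ff was the highest of its 4 livers for 6 of the 10 members (Gpam, Gpat4, Lpin1, Lpin2, Dgat1 and Mttp) and the lowest for 2 (Gpat3 and Agpat2), and replicate 1 was the lowest for 5 and the highest for 0. Replicate 1 of Rab30L-/- was also the highest of its group for 6 members, among them Lpin1, Lpin2, Gpam, Dgat1 and Mttp.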
